A study of Mus musculus with 18 samples.

Results

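Gasdermins are pore-forming proteins. A protease releases their amino-terminal domain, which inserts into membranes and lets cytokines leave the cell or kills it by pyroptosis. Gsdmd is the gasdermin cut downstream of inflammasomes by inflammatory caspases, and it is widely expressed. The mouse Gsdmc genes are tandem copies of an ancestral gene, are expressed mainly in the epithelium of the large intestine, and are known to rise with type 2 cytokines such as IL-4 and IL-13.

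The 6 genes described here were the rows named Gsdmc, Gsdmc2, Gsdmc3, Gsdmc4, Gsdmcl2 and Gsdmd in the 2 expression tables, out of 52636 gene rows. Bulk RNA-seq was made from mouse colon in a study of the olfactory receptor Olfr78, a receptor of short-chain fatty acids found in enteroendocrine cells. From the Olfr78-GFP line, of mixed B6;129P2 origin, in which a GFP cassette replaced the coding exon, there were crypts of 2 WT and 5 KO mice, each library from 1 mouse. Sorted cells of that line, from mice of 4 to 7 months, were 2 samples of Epcam+ve/GFP-ve cells from 1 WT mouse (Epcam cells), 2 pools of Epcam+ve/GFP+ve cells from heterozygous mice (HE GFP cells) and 2 such pools from homozygous mice (KO GFP cells), with 2 mice to a pool. From the Vil1Cre-Olfr78fx line, in which Cre driven by the villin promoter removes Olfr78 from the epithelium alone, there were crypts of 3 eControl and 2 eKO mice. eControl mice 1 and 3 carried the genotype tag HE/WT and mouse 2 the tag WT/HO, eKO mouse 1 the tag HE/HO and eKO mouse 2 the tag WT/HO. The age of the mice that gave crypts is not given in the sources used here.

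The values are counts scaled to a library total of 20000000 (CP20M), from 6175306 to 10995308 reads on genes in crypts and from 532704 to 2237486 in sorted cells, where KO GFP pool 1 was the shallow library. Olfr78 read 88 and 111 CP20M in WT crypts against 7 to 42 in KO crypts, and 105, 61 and 124 in eControl against 21 and 73 in eKO crypts. The library labelled eKO mouse 2, with 73, lay inside the control range and carried the tag of a control, so results in this line are given with and without it. In KO GFP cells the Olfr78 row still read 977 and 837 against 4822 and 4401 in HE GFP cells. Epcam cells carry the label enteroendocrine, yet the summed 4 enteroendocrine markers (Chga, Chgb, Neurod1, Tph1) read 12872 and 12514 there against 843721 and 1099468 in HE GFP cells.

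The 5 cluster genes lie on chromosome 15 of GRCm38 within 136.33 kb, from 63775968 to 63912297, and Gsdmd lies on the same chromosome 11950 kb away. In GENCODE vM21, Gsdmc (63775968 to 63808759), Gsdmc2 (63824346 to 63845177), Gsdmc3 (63857724 to 63878558) and Gsdmc4 (63891264 to 63912297) are protein-coding genes on the minus strand. Gsdmcl2 (63880707 to 63890512, plus strand), between Gsdmc3 and Gsdmc4, is annotated as a transcribed pseudogene and overlaps neither of them. Gsdmd is protein coding (75862327 to 75867408, plus strand).

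Reads of the paralogs are hard to keep apart, and the sequences show where. The first 120 coding bases of the 4 coding copies follow (GENCODE vM21 transcripts, minus strand, 5′ to 3′), with capitals at the 15 positions where the copies are not all the same. They come from chr15:63804473-63804592, chr15:63835824-63835943, chr15:63869178-63869297 and chr15:63902811-63902930, in the order printed.
Gsdmc: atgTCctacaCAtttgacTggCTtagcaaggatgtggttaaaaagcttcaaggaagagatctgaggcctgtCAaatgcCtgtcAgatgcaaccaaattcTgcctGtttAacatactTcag
Gsdmc2: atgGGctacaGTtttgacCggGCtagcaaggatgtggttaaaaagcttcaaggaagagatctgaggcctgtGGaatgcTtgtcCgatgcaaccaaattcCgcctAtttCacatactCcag
Gsdmc3: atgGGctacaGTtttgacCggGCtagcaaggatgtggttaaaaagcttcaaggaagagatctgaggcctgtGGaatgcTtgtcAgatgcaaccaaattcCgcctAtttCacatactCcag
Gsdmc4: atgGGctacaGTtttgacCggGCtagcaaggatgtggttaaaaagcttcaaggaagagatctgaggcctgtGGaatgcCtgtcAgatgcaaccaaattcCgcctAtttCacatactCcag

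In that stretch Gsdmc2 and Gsdmc3 differed at 1 base, Gsdmc3 and Gsdmc4 at 1, and Gsdmc2 and Gsdmc4 at 2, while Gsdmc differed from them at 13 to 15. Over all 1440 coding bases Gsdmc2 and Gsdmc3 were 97.1% identical. Gsdmc4 was 96.7% identical to Gsdmc2 and 96.2% to Gsdmc3 over the 9 coding exons of equal length. Gsdmc was the divergent copy, at 78.3% to 85.8% over the 7 coding exons of equal length. The last coding exon of the 3 close copies was searched for a stretch that tells them apart, and other exons were not. Its 100 bases with the most differences follow, with capitals at the 8 positions that vary (chr15:63825057-63825156, chr15:63858450-63858549 and chr15:63891983-63892082).
Gsdmc2: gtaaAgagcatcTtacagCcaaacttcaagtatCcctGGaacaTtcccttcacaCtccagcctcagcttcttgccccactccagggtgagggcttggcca
Gsdmc3: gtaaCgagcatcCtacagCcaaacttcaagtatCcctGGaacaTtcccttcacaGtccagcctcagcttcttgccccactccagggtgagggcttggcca
Gsdmc4: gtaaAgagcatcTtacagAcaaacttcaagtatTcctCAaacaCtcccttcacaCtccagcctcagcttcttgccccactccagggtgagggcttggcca

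Of all 100-base windows in their transcripts, 28.6% of those of Gsdmc2, 28.4% of Gsdmc3 and 20.2% of Gsdmc4 also occur word for word in another gene. The figure was 11% for Gsdmcl2, 7.03% for Gsdmc and 0 for Gsdmd. Values of the close copies are therefore uncertain to the extent that shared reads were dropped or split, and the cluster is also given as the sum of its 5 genes.

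Gsdmc4 was the most abundant member in every crypt library and Gsdmc the least. Per kb of exon, the scale on which genes can be set side by side, the WT crypt levels were 7903 ± 3136 CP20M per kb for Gsdmc4 (mean ± SD, n = 2). Gsdmc2 followed at 3493 ± 1476, Gsdmc3 at 947 ± 303, Gsdmd at 482 ± 21.1, Gsdmcl2 at 314 ± 119 and Gsdmc at 40.5 ± 15. Both WT libraries kept this order, and no pair of neighbours overlapped. The cluster as a whole took 0.100% and 0.178% of the reads on genes in WT crypts, and Gsdmc4 alone gave 59.2% and 59.1% of the cluster's reads there.

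Across the 7 groups the cluster and Gsdmd were ordered differently. Mean Gsdmc4 fell from eControl crypts (21564 ± 6433 CP20M, n = 3) through WT (16494 ± 6544, n = 2), eKO (10398 ± 259, n = 2) and KO crypts (7769 ± 2325, n = 5) to Epcam cells (6979 ± 497, n = 2), KO GFP cells (4122 ± 4607, n = 2) and HE GFP cells (1545 ± 1429, n = 2). Only WT and eKO crypts, of all neighbours in that order, did not overlap. Mean Gsdmd ran from eControl (1717 ± 422) and eKO crypts (1643 ± 469) through KO (1379 ± 178) and WT crypts (1147 ± 50.2) to Epcam (672 ± 62.9), HE GFP (488 ± 255) and KO GFP cells (354 ± 75.0). Here the neighbours that did not overlap were KO and WT crypts, and WT crypts and Epcam cells. The 2 lines are in separate tables, each scaled to that total, so that levels across them were set side by side and not tested. The plot of the members by library shows this order.

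**Figure D1:**
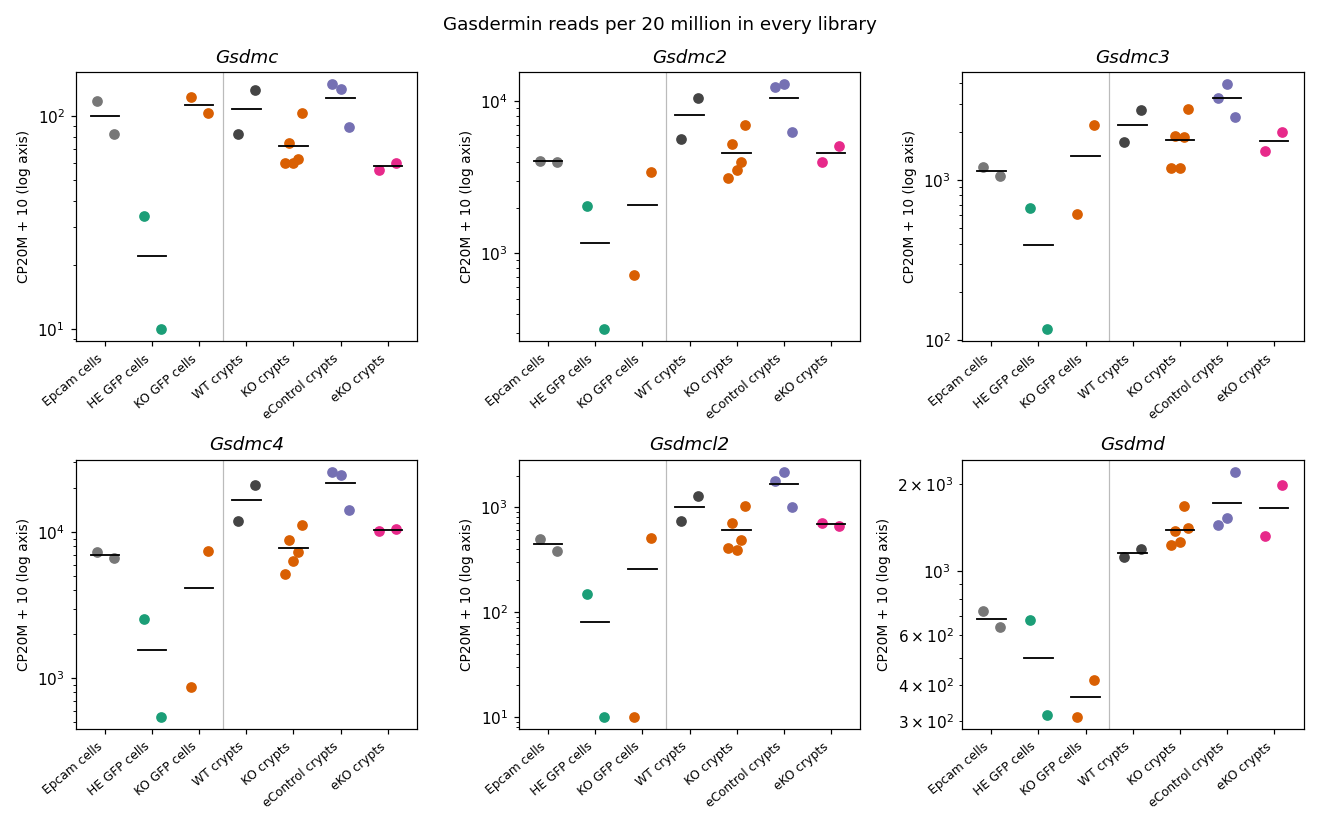
Each panel plots 1 gasdermin as CP20M + 10 on a log axis, with 1 point per library, a bar at the group mean, and sorted cells left of the grey line. Gsdmc4 sits between 5162 and 11161 CP20M in KO crypts and between 11866 and 21121 in WT crypts, whereas Gsdmd sits between 1218 and 1667 in KO and at 1111 and 1182 in WT crypts.

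The first comparison asked how cells that express Olfr78 differ from the general epithelium. All 5 cluster genes were lower in both HE GFP pools than in both Epcam samples, while Gsdmd overlapped, and no member passed the thresholds of limma (adjusted p under 0.001 and a log2 fold change beyond 2). The 5 cluster genes had an unadjusted p under 0.05 by limma, as did 37.2% of all genes tested (19.0% lower). No member was called by edgeR or DESeq2 either. Past the limma thresholds were 1.75% of all genes tested, 259 higher and 28 lower. Groups that do not overlap were common here, since 33.1% of the genes tested were lower without overlap.

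Gsdmc4 read 7330 and 6627 CP20M in Epcam cells and 2555 and 534 in HE GFP cells. The lower of the HE pools was thus much further from the Epcam samples than the other. Its log2 fold change was -2.56 ± 0.57 (SE, limma adjusted p = 0.0147). Gsdmc2 read 4068 and 3956 against 2026 and 307, with a log2 fold change of -2.32 ± 0.68 (limma adjusted p = 0.0405). Gsdmc3, with 1198 and 1048 against 656 and 107, gave -2.02 ± 0.67 (limma adjusted p = 0.061). In each of these 3 genes HE pool 2 was the lowest of the 4 libraries. Gsdmcl2 read 492 and 370 against 139 and 0, and Gsdmc 108 and 72 against 24 and 0. In HE pool 1 these were 12 and 2 reads. Their log2 fold changes were -3.50 ± 1.08 (limma adjusted p = 0.0479) and -2.42 ± 0.78 (limma adjusted p = 0.0556).

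At adjusted p under 0.05 with no fold minimum, Gsdmc2, Gsdmc4 and Gsdmcl2 were lower, beside 11.3% of all genes tested. Without HE pool 1, the lone HE pool left has no spread of its own, so that fit rests on the spread of the Epcam samples of 1 mouse. Gsdmd read 716 and 627 against 668 and 307, a log2 fold change of -0.55 ± 0.38 (limma adjusted p = 0.332). HE pool 1 thus held as much Gsdmd as the Epcam samples but only a part of their Gsdmc4. A bulk sample cannot tell fewer cells of a type from less RNA per cell.

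The genes of the colonocyte surface were low in the same pools. The 4 colonocyte markers (Car1, Car4, Slc26a3, Aqp8) summed to 83497 and 72642 CP20M in Epcam cells, 36467 and 14817 in HE GFP cells, and 4695 and 38475 in KO GFP cells. The 4 goblet markers (Muc2, Tff3, Fcgbp, Clca1) summed to 316991 and 263123, then 136906 and 58274, then 57370 and 306884. The summed cluster read 13196 and 12073 in Epcam cells, 5400 and 948 in HE GFP cells, and 2292 and 13574 in KO GFP cells. HE pool 2 and KO pool 1 were thus low, and HE pool 1 and KO pool 2 higher, for the cluster and for the sums of both marker lists. Car1 gave most of the colonocyte sum. Car4 (553 and 654 in HE pools 1 and 2) and Aqp8 (24 and 107) did not follow this order between the HE pools. The part of those cells in the cluster's values was not tested. Over 27 surface colonocyte genes tested between HE GFP and Epcam cells, the median log2 fold change was -1.55, beside -0.05 over all genes and -2.37 over the 6 members. Among those 27, Krt20 was called higher and none lower.

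The second comparison asked what the loss of Olfr78 does inside GFP+ve cells. The 4 enteroendocrine markers summed to 843721 and 1099468 CP20M in HE and 593577 and 352352 in KO GFP cells. The part of this difference in the cluster's values was not tested. No member was called between KO and HE GFP cells, and limma called 0 of 11892 genes (0.0%) at adjusted p under 0.05, with 503 at an unadjusted p under 0.05, while edgeR called 0 and DESeq2 8, no member among them. Gsdmc and Gsdmcl2 failed the filter, which asks for more than 40 CP20M in all 4 pools. Gsdmc read 24 and 0 CP20M in HE and 113 and 93 in KO GFP cells, from 0 to 8 reads a pool, and was the only member whose groups did not overlap. Of the genes tested, 8.91% were higher without overlap. Gsdmcl2 read 139 and 0 in HE and 0 and 500 in KO GFP cells.

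Of the 4 members that passed the filter, Gsdmc3 had the largest difference and was the only member with an unadjusted p under 0.05 by limma, at 656 and 107 CP20M in HE and 601 and 2197 in KO GFP cells. Its log2 fold change was 2.06 ± 0.86 (limma adjusted p = 0.931). Gsdmc4 read 2555 and 534 against 864 and 7379, and Gsdmc2 2026 and 307 against 714 and 3405. In all 3 genes 1 KO pool exceeded both HE pools and the other KO pool lay between them. The log2 fold changes were 1.11 ± 0.98 for Gsdmc4 and 0.97 ± 0.91 for Gsdmc2, and both turned negative when HE pool 2 or KO pool 2 was left out. Without the shallow KO pool 1, the lone KO pool left has no spread of its own, so that fit rests on the spread of the HE pools. Gsdmd read 668 and 307 against 301 and 407, a log2 fold change of -0.36 ± 0.52 (limma adjusted p = 0.945). The 3 cluster genes that passed the filter and Gsdmd therefore had opposite signs here, with none beyond the spread between pools. On the study's criterion for this comparison, a difference of means over the mean SD beyond 2 and a ratio beyond 1.5-fold, none of the 4 tested members passed, beside 13.2% of all genes.

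Between KO GFP and Epcam cells, which shares the Epcam samples with the first comparison, again no member was called. Limma called 0 of 15779 genes (0.0%), with 2925 at an unadjusted p under 0.05, while edgeR called 31 and DESeq2 238, no member among them. Gsdmd read 301 and 407 in KO GFP cells against 716 and 627, a log2 fold change of -0.92 ± 0.35 (limma adjusted p = 0.257). Gsdmc2 was the other member whose groups did not overlap (714 and 3405 against 4068 and 3956), at -1.35 ± 0.68 (limma adjusted p = 0.327), beside 35.5% of genes lower without overlap. The KO pools differed 8.54-fold in Gsdmc4. Without KO pool 2, the lone KO pool left has no spread of its own, so that fit rests on the spread of the Epcam samples alone. The median of all genes was -0.18 on the log2 scale between KO and HE GFP cells and -0.26 between KO GFP and Epcam cells, so small negative values there stand near the middle of the table.

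**Figure D2:**
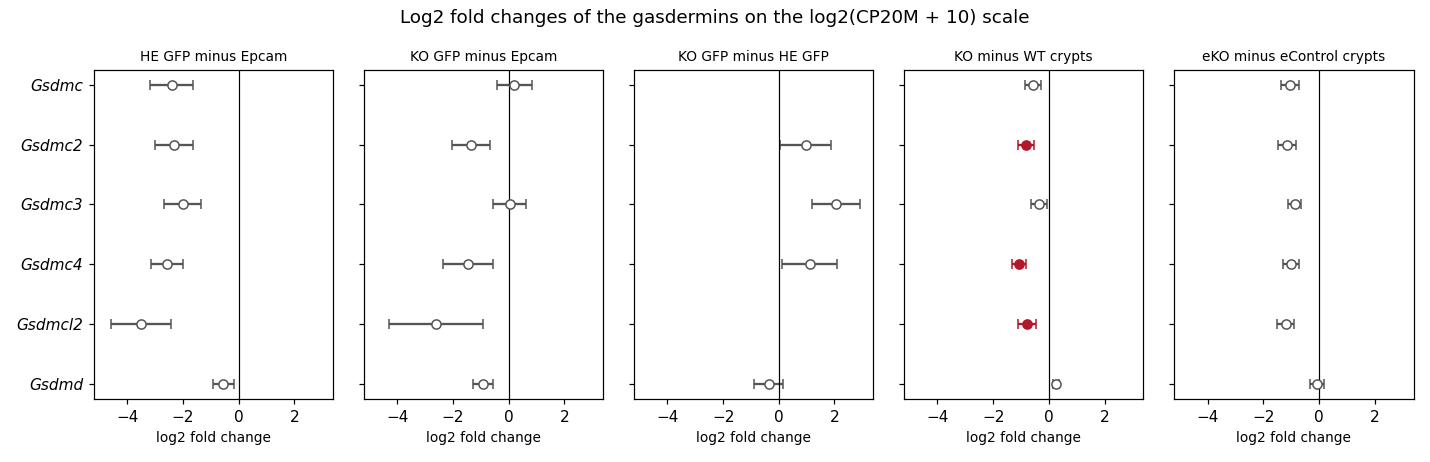
Points are log2 fold changes on the log2(CP20M + 10) scale and bars their SE in 5 comparisons, with filled red points for members that passed that comparison's thresholds. Gsdmc2, Gsdmc4 and Gsdmcl2 were called in KO against WT crypts, at -0.82, -1.08 and -0.78, and no member in the other 4 comparisons.

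In crypts, the epithelium as a whole with the cells that express Olfr78 in it, the question was what the loss of Olfr78 changes. Gsdmc4, Gsdmc2 and Gsdmcl2 fell in KO crypts of the Olfr78-GFP line, whereas Gsdmc and Gsdmc3 did not pass the test and Gsdmd was slightly higher without passing the fold minimum. These 3 of 6 members passed an adjusted p of at most 0.2 together with a change beyond 1.5-fold. By that rule 9.48% of the 15975 genes tested were called, 1.53% lower and 7.95% higher.

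Gsdmc4 read 11866 and 21121 CP20M in WT crypts and 5162, 8832, 6357, 7335 and 11161 in KO crypts. Every KO mouse was below both WT mice, although KO mouse 5 came close to WT mouse 1. The mean was 2.12-fold lower and the log2 fold change -1.08 ± 0.26 (limma adjusted p = 0.0297). Of all genes tested, 13.1% were lower without overlap.

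Gsdmc2 read 5670 and 10503 in WT and 3115, 5215, 3529, 3982 and 6947 in KO crypts. KO mouse 5 exceeded WT mouse 1, so the groups overlapped. The log2 fold change was -0.82 ± 0.28 (limma adjusted p = 0.0887). Gsdmcl2, the transcribed pseudogene, read 730 and 1263 against 401, 694, 380, 479 and 1021, with the same mouse above WT mouse 1. It fell by 0.78 ± 0.32 on the log2 scale (limma adjusted p = 0.152).

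Gsdmc3 was the cluster gene with the smallest difference. It read 1705 and 2703 in WT crypts and 1169, 1863, 1177, 1835 and 2769 in KO crypts, so that 3 of 5 KO mice were within or above the WT range. The log2 fold change was -0.36 ± 0.28 (limma adjusted p = 0.453). Gsdmc, at 72 and 123 against 50, 65, 50, 53 and 93, gave -0.57 ± 0.28 (limma adjusted p = 0.221).

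Gsdmd moved the other way. It read 1111 and 1182 in WT crypts and 1218, 1364, 1249, 1667 and 1399 in KO crypts, with every KO mouse above both WT mice, as in 18.2% of genes tested. The log2 fold change was 0.26 ± 0.12 (limma adjusted p = 0.199), under the fold minimum.

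The calls in the cluster rested on WT mouse 2, the library of that line with the highest value of every cluster gene except Gsdmc3. Without it no member was called, and Gsdmc4 gave -0.66 ± 0.30 (limma adjusted p = 0.355). Without any 1 of the other libraries 2 to 4 members were called, and Gsdmc4 and Gsdmc2 were among them each time. DESeq2 on the recovered reads called Gsdmc4 alone. The share of all genes called in these fits is not given here, so the counts have none beside them.

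In the Vil1Cre-Olfr78fx line, where only the epithelium loses the gene, all 5 cluster genes were lower in both eKO mice than in all 3 eControl mice, and Gsdmd was not. No member was called, and limma called 0 of 15401 genes (0.0%) with 127 at an unadjusted p under 0.05, while edgeR called 0 and DESeq2 6. Of all genes tested, 2.79% were lower without overlap.

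Gsdmc4 read 25839, 24688 and 14166 CP20M in eControl and 10215 and 10581 in eKO crypts. Its mean was 2.07-fold lower, with a log2 fold change of -1.002 ± 0.28 (limma adjusted p = 0.999985). Gsdmc2 read 12376, 12965 and 6268 against 3981 and 5088, with a log2 fold change of -1.15 ± 0.32. Gsdmcl2 read 1759, 2160 and 985 against 698 and 657 (-1.19 ± 0.31). In these 3 genes eControl mouse 3 was the lowest control and lay nearer to the eKO mice than to the other controls. Gsdmc3 read 3260, 3954 and 2454 against 1513 and 1990 (-0.86 ± 0.23), and Gsdmc 131, 124 and 79 against 46 and 50 (-1.04 ± 0.31). The limma p-values of the 5 cluster genes ranked 10, 13, 17, 18 and 21 among all genes tested, and each had an adjusted p of 0.999985. DESeq2 called Gsdmc2, Gsdmc4 and Gsdmcl2, with adjusted p of 0.176, 0.195 and 0.176. Gsdmd read 1431, 1518 and 2201 against 1311 and 1974, with a log2 fold change of -0.07 ± 0.25 and full overlap.

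Without the library labelled eKO mouse 2, the log2 fold changes were -1.03 for Gsdmc4, -1.33 for Gsdmc2, -1.06 for Gsdmc3, -1.14 for Gsdmcl2 and -1.09 for Gsdmc, and limma called none (adjusted p = 0.678 for each). With that library counted as a control, as its genotype tag reads, Gsdmc4 gave -0.78 (limma adjusted p = 0.494). Its cluster values thus lay near those of eKO mouse 1, and its Olfr78 value in the control range.

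Several genes that type 2 cytokines are known to raise were high in eControl mice 1 and 2, the mice with the most Gsdmc cluster reads. Pla2g4c, a cytosolic phospholipase, read 2403, 2627 and 43 CP20M in the 3 eControl mice and 44 and 144 in the eKO mice. Ang4, a secreted antimicrobial ribonuclease, read 7504, 6616 and 462 against 356 and 246. Itln1, an intelectin of goblet cells, read 477, 278 and 17 against 23 and 31. In all 3 genes eControl mouse 3 was like the eKO mice. Retnlb, another goblet product, did not follow this split, at 25988, 6379 and 665 against 16723 and 14568. In the Olfr78-GFP line Pla2g4c read 59 and 107 in WT and 75, 101, 57, 49 and 132 in KO crypts. Ang4 read 677 and 881 against 277 to 799 in KO mice 1, 3 and 4 and 1772 and 1789 in KO mice 2 and 5, and Itln1 14 and 16 against 14, 26, 19, 7 and 34. KO mice 2 and 5, with the highest summed cluster among KO mice (16669 and 21991 CP20M), were the highest KO mice for all 3 genes. Between the groups, WT and KO crypts overlapped for each of these genes. The part of these differences between mice in the cluster's values was not tested. Of 20 genes of the IL-4/IL-13 list tested in the Vil1Cre-Olfr78fx line none was called, and the median log2 fold change was -0.14, beside 0.03 over all genes and -1.02 over the 6 members. In KO against WT crypts 2 of 18 were called, Retnlb (-0.87 ± 0.24, limma adjusted p = 0.0442) and the cytokine signalling inhibitor Socs1 (-0.65 ± 0.30, limma adjusted p = 0.198), both lower, and the median was 0.07. The receptor chain Il4ra and the transcription factor Stat6 were not called in either line.

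Over both lines, with the line as a covariate, limma called no member and 4 of 16447 genes (0.0243%). The 5 cluster genes had an unadjusted p under 0.05 by limma, as did 7.7% of all genes tested (2.71% lower). Gsdmc4 had the sixth-lowest p of all genes, with a log2 fold change of -1.04 ± 0.21 (limma adjusted p = 0.47). Gsdmc2 (-0.97 ± 0.24), Gsdmcl2 (-0.97 ± 0.26), Gsdmc (-0.78 ± 0.21) and Gsdmc3 (-0.59 ± 0.22) shared its direction, and Gsdmd gave 0.11 ± 0.14. With DESeq2 on the recovered reads 4 members were called (Gsdmc, Gsdmc2, Gsdmc4 and Gsdmcl2) and with edgeR 1 (Gsdmc4, adjusted p = 0.179). Limma called 4 without eKO mouse 1 (Gsdmc, Gsdmc2, Gsdmc4 and Gsdmcl2). It called 1 without KO mouse 5 or eControl mouse 3 (Gsdmc4 each time), and none without any other library. The share of all genes called in these alternative fits is not given here, so these counts have none beside them. The difference between the effects in the 2 lines was not called for any member, beside 0.0304% of all genes, with adjusted p from 0.682 to 0.961 by limma, 0 members at an unadjusted p under 0.05, and 0 called by edgeR or DESeq2. The difference in effect (Vil1Cre-Olfr78fx minus Olfr78-GFP) was 0.07 ± 0.44 for Gsdmc4 and -0.50 ± 0.44 for Gsdmc3. Without the library labelled eKO mouse 2, the lone eKO library left has no spread of its own, so that fit rests on the spread of the other groups.

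Side by side, 3 members (Gsdmc2, Gsdmc4 and Gsdmcl2) were lower by more than 1.5-fold on the fitted scale in each line, as did 31 of 15090 genes tested in both (0.205%). Gsdmc4 was the only member whose groups did not overlap in either line, as for 62 of those genes (0.411%). The 2 lines share no library.

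The copies of the cluster did not change in equal proportion in the Olfr78-GFP line. Gsdmc3 made up 8.50% and 7.57% of the cluster's reads in WT crypts and 11.8%, 11.2%, 10.2%, 13.4% and 12.6% in KO crypts, with no overlap. Gsdmc4 made up 59.2% and 59.1% in WT and 52.2%, 53.0%, 55.3%, 53.6% and 50.8% in KO crypts, so each KO mouse held a lower share of the main copy. The ratio of Gsdmc3 to Gsdmc4 was 0.144 and 0.128 in WT and 0.185 to 0.250 in KO crypts. In sorted cells of the same line it was 0.163 and 0.158 in Epcam cells, 0.257 and 0.2 in HE GFP cells and 0.696 and 0.298 in KO GFP cells, where the values of HE pool 2 and KO pool 1 rest on 71 and 61 cluster reads. In the Vil1Cre-Olfr78fx line the ratios overlapped, at 0.126, 0.160 and 0.173 in eControl and 0.148 and 0.188 in eKO crypts. Since Gsdmc3 and Gsdmc4 share 16.0% of the 100-base windows of Gsdmc4, this ratio also depends on how shared reads were treated. Summed over its 5 genes, the cluster read 20043 and 35713 CP20M in WT and 9897 to 21991 in KO crypts (log2 fold change -0.92 ± 0.27), and 23952 to 43891 in eControl and 16453 and 18366 in eKO crypts (-1.04 ± 0.30). The summed values overlapped in the first line and not in the second.

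**Figure D3:**
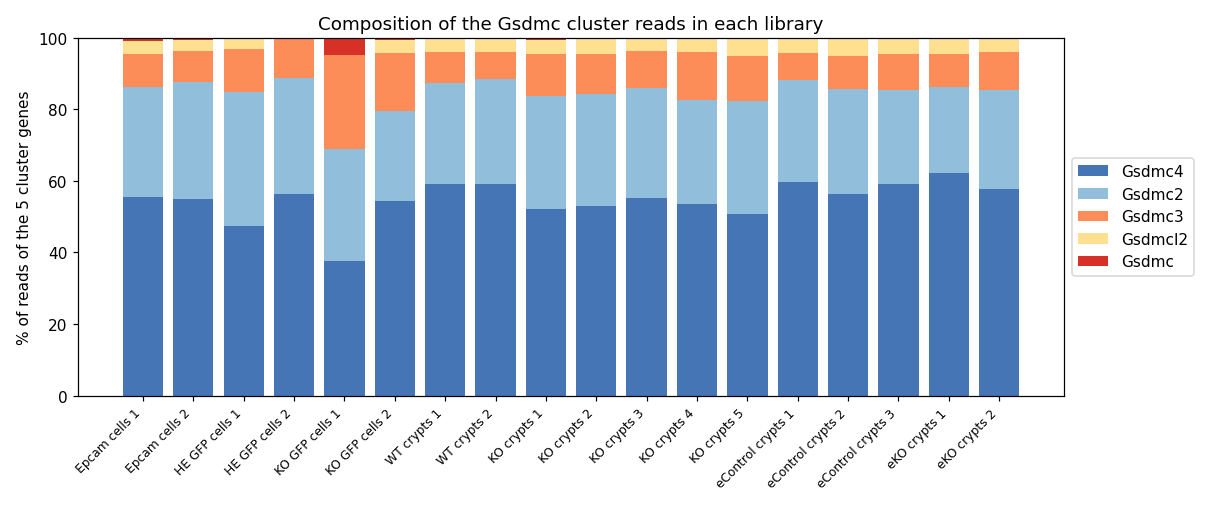
Stacked bars give the percentage of the reads of the 5 cluster genes that fell on each gene, for each of the 18 libraries. The Gsdmc3 part is 7.57% to 8.50% in WT crypts and 10.2% to 13.4% in KO crypts, and the bars of HE GFP cells 2 and KO GFP cells 1 rest on 71 and 61 reads.

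The neighbours of the cluster that could be tested in crypts all lay on its Gsdmc4 side. Within 250 kb of its outer ends the tables hold 8 other genes, of which 3 passed the filter in crypts. Gsdmcl-ps (63914448 to 63925666), a further transcribed pseudogene copy next to Gsdmc4, read 27 and 64 CP20M in WT and 20, 49, 34, 37 and 62 in KO crypts, and 126, 118 and 45 in eControl against 39 and 50 in eKO crypts. eControl mouse 3 was the lowest control, as for the cluster. The log2 fold changes of Gsdmcl-ps were -0.11 ± 0.37 in KO and -0.86 ± 0.45 in eKO crypts. Fam49b (63929097 to 64060478) on the far side of it read 717 and 774 in WT and 707 to 801 in KO crypts. Its log2 fold change was -0.02 ± 0.10 there (limma adjusted p = 0.938) and -0.03 ± 0.15 in eKO crypts. Asap1, a GTPase-activating protein of the Arf family beyond Fam49b, was called higher in KO crypts (0.59 ± 0.13, limma adjusted p = 0.0211) and gave -0.40 ± 0.29 in eKO crypts. Of the 6 genes tested within 50 kb of Gsdmd, Tigd5 was called higher in KO crypts (0.61 ± 0.22, limma adjusted p = 0.102) and none in eKO crypts.

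**Figure D4:**
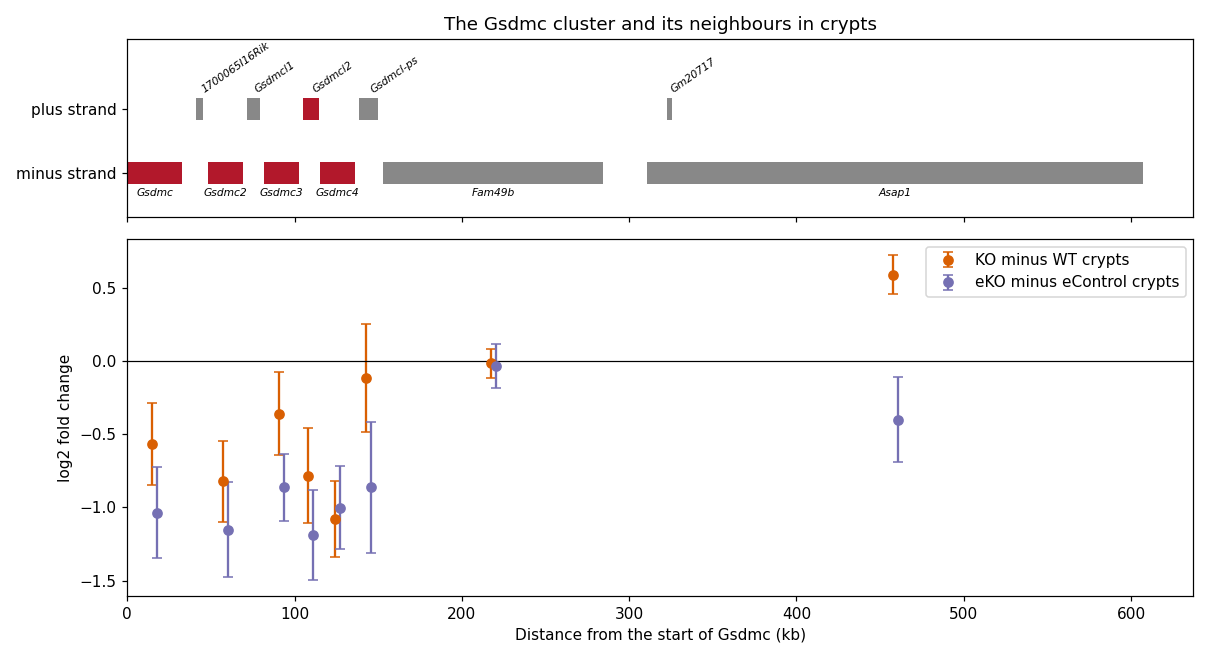
The upper panel draws the genes of the Gsdmc cluster (red) and its neighbours (grey) to scale by strand, and the lower panel gives their log2 fold changes with SE in both lines at the centre of each gene tested. Values lie at -0.36 to -1.19 across the cluster and at -0.02 and -0.03 at Fam49b.

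Across the 12 crypt libraries, after the mean of each line was taken off, the cluster genes varied together. Pearson's r of log2(CP20M + 10) was 0.975 between Gsdmc2 and Gsdmc4 and 0.875 between Gsdmc3 and Gsdmc4, the lowest of the 10 pairs within the cluster. Between each cluster gene and Gsdmd it was -0.28 to 0.07. The libraries share their preparation, the copies share reads, and genotype differs within each line, so these values describe the libraries and carry no test.

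Among 9853 other genes with a mean of at least 200 CP20M in each line, the 5 most like Gsdmc2 were Mpp6 (r = 0.936), Camk1d (0.916), Dfna5 (0.869), Rnf152 (0.864) and Mptx1 (0.856). For Gsdmc4, Mpp6 (0.950), Rnf152 (0.923), Papss2 (0.912) and Camk1d (0.912) were among the 5 most alike. Mpp6, a scaffold protein of the MAGUK family, read 2698 and 4409 CP20M in WT and 1343, 1863, 1816, 1303 and 2135 in KO crypts. It read 4161, 4302 and 2710 in eControl and 1541 and 1976 in eKO crypts. No knockout mouse of either line reached its controls. Mpp6 was picked by its correlation over these same libraries, with genotype left in, so a like change is partly fixed by the pick. The log2 fold change of Mpp6 was -1.05 ± 0.21 in KO crypts (limma adjusted p = 0.0139) and -1.06 ± 0.24 in eKO crypts (limma adjusted p = 0.999985), close to the values of Gsdmc4. Over both lines it was among the 4 genes called (-1.05 ± 0.17, limma adjusted p = 0.135).

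Dfna5 is the older symbol of Gsdme, a gasdermin outside the Gsdmc and Gsdmd loci. It read 1231 and 1818 CP20M in WT and 950, 1157, 1215, 857 and 1209 in KO crypts, and 1486, 1737 and 1278 in eControl against 805 and 1206 in eKO crypts. Every knockout mouse lay below its controls here too, by a smaller margin, and Dfna5 was picked in the same way as Mpp6. The log2 fold changes were -0.48 ± 0.17 (limma adjusted p = 0.0927, under the fold minimum) and -0.59 ± 0.22. Mpp6 (plus strand, 50110241 to 50198939) and Dfna5 (minus strand, 50188888 to 50263862) overlap by 10052 bases on chromosome 6, and the sources used here do not state whether counting used strand, so reads in the overlap cannot be told apart. For Gsdmd the 5 most alike genes were Igsf3 (0.934), Gmip (0.934), Pik3r3 (0.923), Pomgnt1 (0.923) and Gm38357 (0.922), none of them among those of Gsdmc2 or Gsdmc4.

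**Figure D5:**
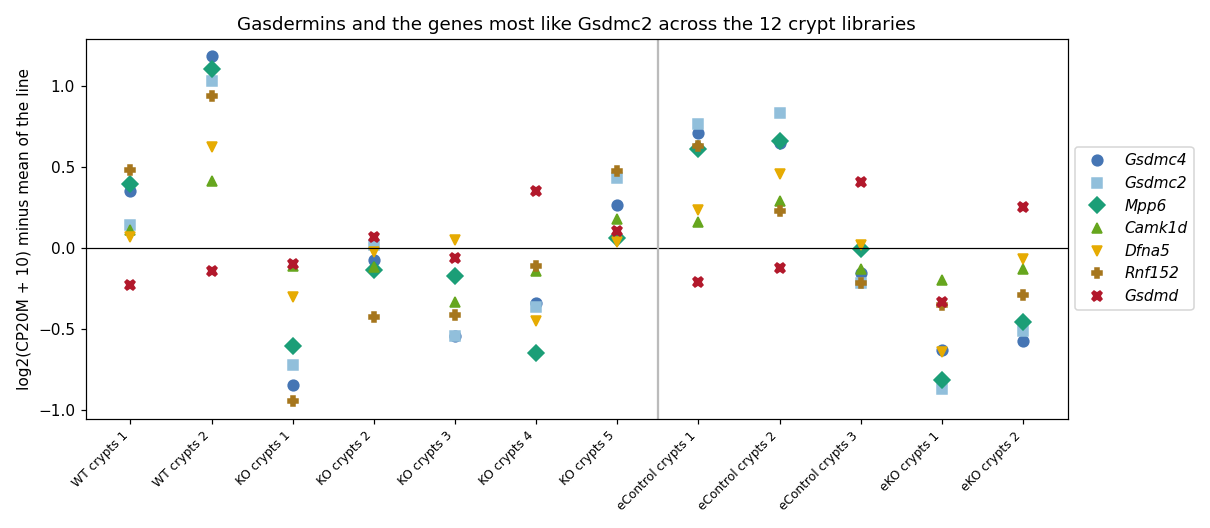
Points are log2(CP20M + 10) minus the mean of the line for 3 gasdermins and 4 genes most like Gsdmc2 in the 12 crypt libraries, with the Olfr78-GFP line left of the grey line. Mpp6 (r = 0.936 with Gsdmc2) follows the cluster in both lines, and Gsdmd (r = -0.21 with Gsdmc2) does not.

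Other gasdermins were measured in the same tables. Gsdma, known from skin and the upper digestive tract, read 18 and 0 CP20M in Epcam cells, 1796 and 3454 in HE GFP cells and 1878 and 965 in KO GFP cells. It was called higher in HE GFP cells (7.22 ± 0.60 on the log2 scale, limma adjusted p = 0.000185), the opposite direction to the Gsdmc cluster. In crypts it stayed between 15 and 56 in all 12 libraries. Of the 5 other gasdermin rows, Gsdma and Dfna5 passed the filter in sorted cells and in both crypt comparisons.

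The genes that act with Gsdmd were described by a list of 42 inflammasome, caspase and pyroptosis genes. In HE GFP against Epcam cells 1 of 26 tested was called, Pycard, the adaptor that joins sensors to Casp1, which read 2253 and 1880 CP20M in Epcam and 472 and 454 in HE GFP cells (-2.13 ± 0.23 on the log2 scale, limma adjusted p = 0.000653). In KO against WT crypts 4 of 30 tested were called. Pycard (-0.61 ± 0.22) and Casp12 (-0.84 ± 0.30) were lower, and the sensors Nlrp9b (1.67 ± 0.20, limma adjusted p = 0.00137) and Naip5 (0.74 ± 0.15, limma adjusted p = 0.017) higher. Casp1, one of the caspases that cut Gsdmd, gave -0.33 ± 0.11 (limma adjusted p = 0.0887, under the fold minimum). Casp4 went the other way, at 0.38 ± 0.16 (limma adjusted p = 0.167), also under the fold minimum. Casp8, known to cut human GSDMC, gave 0.02 ± 0.10. The median over the 30 genes was 0.02, beside 0.03 over all genes. In eKO against eControl crypts none of 30 was called, with Nlrp9b at -0.53 ± 0.61 and Pycard at 0.08 ± 0.20.

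Of 27 surface colonocyte genes, 4 fell in KO crypts (Mal, Slc37a2, Slc51a and Saa1) and 1 rose (Ceacam20), with a median of -0.13, and none was called in eKO crypts. Slc37a2, a sugar phosphate exchanger, read 3390 and 7131 CP20M in WT and 1182, 1477, 1837, 2012 and 3615 in KO crypts, and its 3 highest libraries were those of Gsdmc4, both WT mice and KO mouse 5. In the other line it read 4091, 7733 and 5977 in eControl and 675 and 3848 in eKO crypts (-1.82 ± 0.64 on the log2 scale), where the order of the mice differed from that of Gsdmc4. Of 19 crypt base and cycling genes 1 was called in KO crypts, the stem cell receptor Lgr5 (-0.76 ± 0.16, limma adjusted p = 0.0195), and none in eKO crypts. The 4 colonocyte markers summed to 121755 and 130653 in WT and 86540 to 109217 in KO crypts without overlap, and to 99596 to 139527 in eControl and 115593 and 118134 in eKO crypts with overlap. Most of each sum was Car1, which was lower in KO crypts (-0.52 ± 0.13). Car4, Slc26a3 and Aqp8 were slightly higher there (0.42 ± 0.15, 0.23 ± 0.21 and 0.11 ± 0.20), and none of these 4 markers was called. Their part in the cluster's values was not tested. Leukocyte markers (6 symbols in 7 rows) summed to 790 and 972 in WT and 343 to 617 in KO crypts without overlap, and 3 of the 6 rows tested were called lower there, Cd74 (-1.40 ± 0.29), Lyz2 (-1.34 ± 0.42) and Ptprc (-0.66 ± 0.26). Of the muscle markers, Des and Myh11, which summed to 41 and 73 in WT and 117 to 277 in KO crypts without overlap, Myh11 was called higher (1.97 ± 0.36, limma adjusted p = 0.0112). The leukocyte sum was 459 to 1574 in eControl and 634 and 690 in eKO crypts and the muscle sum 41 to 261 and 103 and 496, with no marker of either list called. The part of these cells in the cluster's values was not tested.

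Against whole crypts, sorted Epcam cells, all from 1 WT mouse, had less of the cluster and of Gsdmd. Gsdmc4 read 7330 and 6627 CP20M in Epcam cells and 11866 and 21121 in WT crypts, a log2 fold change of -1.18 ± 0.23 (limma adjusted p = 0.0095), and Gsdmd 716 and 627 against 1111 and 1182 (-0.77 ± 0.15, limma adjusted p = 0.0102). No member passed adjusted p under 0.001 and a log2 fold change beyond 2 (0.752% of all genes did), by limma, edgeR or DESeq2, whereas 5 were lower at adjusted p under 0.05 with no fold minimum (18.5% of all genes). Gsdmc gave -0.09 ± 0.40, and its sign turned under another scaling (0.0952). The median of all genes was -0.26 here, and sorting and the extraction kit differ with the groups and cannot be told apart from them.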

How the data were processed

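Total RNA of isolated colon crypts and of FACS-sorted epithelial cells was converted to libraries with the Ovation Solo kit and sequenced as paired ends. Reads were aligned with STAR to GRCm38 and counted per gene with HTSeq, and the treatment of reads with several matches and of strand is not given in the sources used here. The authors deposited gene counts scaled to a total of 20000000 per library and rounded to whole numbers, upwards as the values show. One deposited table holds the sorted cells and crypts of the Olfr78-GFP line and a second the crypts of the Vil1Cre-Olfr78fx line. The deposited values of sorted cells were recorded as a signal and those of all crypts as a score, both being whole reads times a constant. Dividing by the value of 1 read gave, with no tolerance beyond that rounding, whole reads for 99.84% to 99.99% of values above 0 in a library.

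Groups followed the titles. Each comparison was fitted in limma 3.58.1 (R 4.3.3) on log2(CP20M + 10) over all genes with at least 40 CP20M in at least 2 libraries compared, with a trend of the spread and Benjamini-Hochberg adjustment, and fold changes on that scale understate the change of low genes. Thresholds were adjusted p under 0.001 and a log2 fold change beyond 2 between sorted cells and epithelium, adjusted p under 0.05 between KO and HE GFP cells, where more than 40 CP20M was asked of all 4 pools, and adjusted p at most 0.2 with a change beyond 1.5-fold in crypts. edgeR 4.0.16 and DESeq2 1.42.0 on the recovered reads, other pseudocounts, filters, scalings and groupings, a replicate block and the omission of each library were alternatives, and the fits were tested on simulated data. The Epcam samples are 2 samples of 1 mouse, so p-values with them measure a spread that may be technical. Named were the 6 members, Olfr78, genes of 5 lists that were called or whose role is described, neighbours within 250 kb of the cluster or 50 kb of Gsdmd, and the 5 genes most correlated with Gsdmc2, Gsdmc4 and Gsdmd, of which 1 is not reported here. Members and lists were chosen with earlier results of these data known. Sequences and identities came from GRCm38 and GENCODE vM21.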

Additional observations from a re-analysis of the deposited data

How the results depend on the processing

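The number of members called moved as follows. Between HE GFP and Epcam cells it was 0, and 3 at adjusted p under 0.05 with no fold minimum, and 0 to 4 when 1 library was left out. Between KO and HE GFP cells it was 0, and 0 to 2 with 1 library left out, and between KO GFP and Epcam cells 0, and 0 to 3. Between KO and WT crypts it was 3, with DESeq2 1, and 0 to 4 with 1 library left out. Between eKO and eControl crypts it was 0, with DESeq2 3, and 0 to 0 with 1 library left out. Over both lines it was 0, with edgeR 1, with DESeq2 4, and 0 to 4 with 1 library left out. For the difference between the lines it was 0, and 0 to 1 with 1 library left out. Between Epcam cells and WT crypts it was 0, and 5 at adjusted p under 0.05 with no fold minimum. Where leaving out 1 library leaves a lone library in a group, its spread is taken from the other group. The share of all genes called is not given here for every alternative. The cause of these moves was not tested.

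The replicate numbers of the titles do not show which samples belong together, and each comparison shares only 2 of them. The correlation of same-numbered deviations was -0.24 to 0.03 in 4 of 6 comparisons, -0.10 and 0.06 for the 2 numbers of KO and WT crypts, and 0.59 and 0.36 for those of eKO and eControl crypts. With the number as a block, 1 member was called between HE GFP and Epcam cells (Gsdmc4), 3 between eKO and eControl crypts (Gsdmc2, Gsdmc3 and Gsdmcl2) and 4 over both lines (Gsdmc2, Gsdmc3, Gsdmc4 and Gsdmcl2), and the other counts kept their value. The share of all genes called with the block is not given here, so the counts of members cannot be read as particular to them. A crossed pairing of the KO and HE GFP pools, chosen after the data were seen, called 1 member and 85 genes.

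The following log2 fold changes turned their sign. Gsdmd between eKO and eControl crypts was 0.126 with the replicate block and -0.36 to 0.23 with 1 library left out, and over both lines -0.00924 with no covariate for the line. Gsdmc between Epcam cells and WT crypts was 0.0952 after rescaling by the median of ratios, 0.129 with edgeR, 0.137 with DESeq2 and -0.44 to 0.26 with 1 library left out. The difference of the effect between the lines was -0.122 for the summed cluster, -0.34 to 0.49 for Gsdmc4 and -0.78 to 0.11 for Gsdmc2 with 1 library left out. With 1 library left out the KO against HE GFP values were -0.37 to 2.31 for Gsdmc2, -0.43 to 2.65 for Gsdmc4 and -0.91 to 0.18 for Gsdmd. The KO GFP against Epcam values were -0.068 to 0.457 for Gsdmc, -0.89 to 0.97 for Gsdmc3, -3.00 to 0.0822 for Gsdmc4 and -5.45 to 0.22 for Gsdmcl2.

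Depth limits the sorted cells most, where 1 read was worth 8.94 to 37.5 CP20M against 1.82 to 3.24 in crypts, and a count of 0 allows up to 113 CP20M in KO GFP pool 1. An exact two-sided permutation test of 2 against 2 libraries cannot go below 0.333, of 2 against 5 below 0.0952 and of 3 against 2 below 0.2.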
